A study of Mus musculus with 6 samples.

Results

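Fas and 9 other genes of the tumour necrosis factor (TNF) receptor family were followed in GC-1 spg cells, an immortalised mouse line derived from spermatogonia. The 10 genes were the rows of the deposited table with the symbols Fas, Tnfrsf1a, Tnfrsf1b, Tnfrsf9, Tnfrsf10b, Tnfrsf11b, Tnfrsf12a, Tnfrsf21, Cd40 and Ltbr, out of 57180 gene rows, and each symbol matched 1 row. Messenger RNA was sequenced from poly(A)-selected, stranded libraries in 2 groups of 3, collected 24 hours after transfection. The Ov_SNHG1 group was labelled as overexpressing SNHG1, which is a long non-coding RNA and hosts small nucleolar RNAs, and the Vector group carried the control vector. All 6 libraries share the cell line, the tissue label testis and the treatment label "Non-obstructive azoospermia", and no agent is named with that treatment. The labels name no promoter or dose for the construct and do not say whether replicates were separate cultures, so errors cover only how these libraries vary, which can be technical. The genes were chosen by family membership after their fold changes between these 2 groups were known, Fas being among the larger increases. Their values in the 2 groups are therefore given as a description, without p-values.

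Receptors of the TNF family are trimeric cell surface proteins that bind trimeric ligands of the TNF family. Death receptors carry a death domain in the cytoplasm, through which Fas recruits the adaptor FADD and caspase-8, while the TNF receptor encoded by Tnfrsf1a recruits TRADD and RIPK1. Other members bind TRAF proteins directly and feed into NF-kappaB and MAP kinase signalling, and a few act as decoys that bind ligand without a signal. In the testis, Fas ligand and Fas are known for their part in the removal of germ cells.

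Total counts were 19204858 to 21058425 in the Ov_SNHG1 libraries and 15521900 to 21095427 in the Vector libraries, so that 1 count equalled 0.0474 to 0.0644 CPM (counts per 1000000 in the library). Snhg1 itself averaged 25.2 ± 1.19 CPM in the Ov_SNHG1 libraries, against a mean of 23.0 ± 2.63 CPM in Vector (SD, n = 3 each). The groups overlapped, so the counted mouse gene gave no check of the labels, and libraries are named as labelled throughout. The mitochondrially encoded genes held 2.41 to 2.63% of counts in the Ov_SNHG1 libraries and 2.80 to 3.33% in the Vector libraries, a split that moves with every receptor difference given here and whose part in them was not tested. Ov_SNHG1 replicate 1 stood apart on the second principal component (19.0% of the variance). Of 16 germ cell markers, 8, among them Ddx4 and Kit, had 0 counts in all libraries and 13 had fewer than 10 counts in total, so most defining genes of the labelled germ cell type were at or near 0. The summed level of 18 macrophage and lymphocyte markers was 42.6 to 48.5 CPM in the Ov_SNHG1 libraries and 34.1 to 34.9 CPM in the Vector libraries, Cd14 being the 1 marker that passed the test. Only 4 of these 18 were tested, and they went both ways, with 2 positive log2 fold changes and a range of -0.47 to 0.76. Groups did not overlap in 2 markers with Ov_SNHG1 above and in 1 with Ov_SNHG1 below. Ptprc, found on blood-derived cells, had 18 counts in the Ov_SNHG1 libraries together and 7 in the Vector libraries, and Cd4, Cd8a, Ms4a1, Nkg7 and Ncr1 had 0 everywhere. Of 12 peritubular and fibroblast markers 7 were tested, and these went both ways, with Pdgfra called higher, Col1a2 and Col3a1 called lower, and log2 fold changes of -0.52 to 0.47. The summed level of the 12, mostly collagen transcripts, was 18309 to 19172 CPM in the Ov_SNHG1 libraries and 21791 to 23189 CPM in the Vector libraries, with Lum and Thy1 at 0. The part of either cell type in the receptor values was not tested. In bulk RNA, fewer cells with a transcript and less of it in each cell cannot be told apart.

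Promoter windows from RefSeq (build GRCm38.p6) were at hand for 7 of the 10 genes, in 8 windows reaching from 250 bases before each annotated start to 50 after it. The 250 bases before the start are shown for Fas, Tnfrsf1b and the Tnfrsf9 start that holds NF-kappaB matches, because these 3 receptors had the largest log2 fold changes of the family. Letters run 5′ to 3′ on the strand of the gene, and capitals mark matches on either strand to the NF-kappaB consensus, to TGANTCA (AP-1) or to GGGCGG (GC box).
Fas (chr19:34290409-34290658, plus strand): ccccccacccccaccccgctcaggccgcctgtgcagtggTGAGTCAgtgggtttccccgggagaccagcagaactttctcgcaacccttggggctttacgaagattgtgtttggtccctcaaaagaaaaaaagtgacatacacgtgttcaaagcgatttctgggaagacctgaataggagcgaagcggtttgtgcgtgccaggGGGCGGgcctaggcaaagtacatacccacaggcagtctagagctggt
Tnfrsf9 (chr4:150927749-150927998, plus strand): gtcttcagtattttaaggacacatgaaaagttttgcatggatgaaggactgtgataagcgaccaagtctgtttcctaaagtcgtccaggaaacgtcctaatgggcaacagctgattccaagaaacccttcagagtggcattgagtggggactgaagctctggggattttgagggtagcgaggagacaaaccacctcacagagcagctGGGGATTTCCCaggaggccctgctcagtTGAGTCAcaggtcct
Tnfrsf1b (chr4:145246871-145247120, minus strand): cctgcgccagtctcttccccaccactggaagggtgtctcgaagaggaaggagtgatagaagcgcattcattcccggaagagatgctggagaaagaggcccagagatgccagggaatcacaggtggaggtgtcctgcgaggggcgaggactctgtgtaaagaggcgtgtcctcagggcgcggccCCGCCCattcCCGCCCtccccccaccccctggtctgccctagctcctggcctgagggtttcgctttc
Of the 2 Tnfrsf9 windows, the one not shown held only a GC box, at -10, and which start these cells use was not tested. The Tnfrsf9 window shown held 2 overlapping NF-kappaB matches, GGGGATTTCC and GGGATTTCCC, whose first bases lie 43 and 42 bases before the start. It also held the AP-1 match TGAGTCA 15 bases before the start. Fas held the same AP-1 letters 211 bases before its start, and GC boxes at position -47 and, in the part after the start that is not shown, 29. Tnfrsf1b held GC boxes at -67 and -57 on the opposite strand. The NF-kappaB consensus occurred in 1 of the 8 windows, against 8.46% of 32851 mouse windows of the same length, and AP-1 in 2 of 8, against 7.81%. GC boxes occurred in 6 of the 8 windows, against 35.7%. The p53 half-site (8.36% of all windows) and TATAAA (13.6%) were also searched on both strands and occurred in 0 of the 8. A match describes letters in a window, not a bound site, and windows of this length leave out introns and distant elements.

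**Figure D1:**
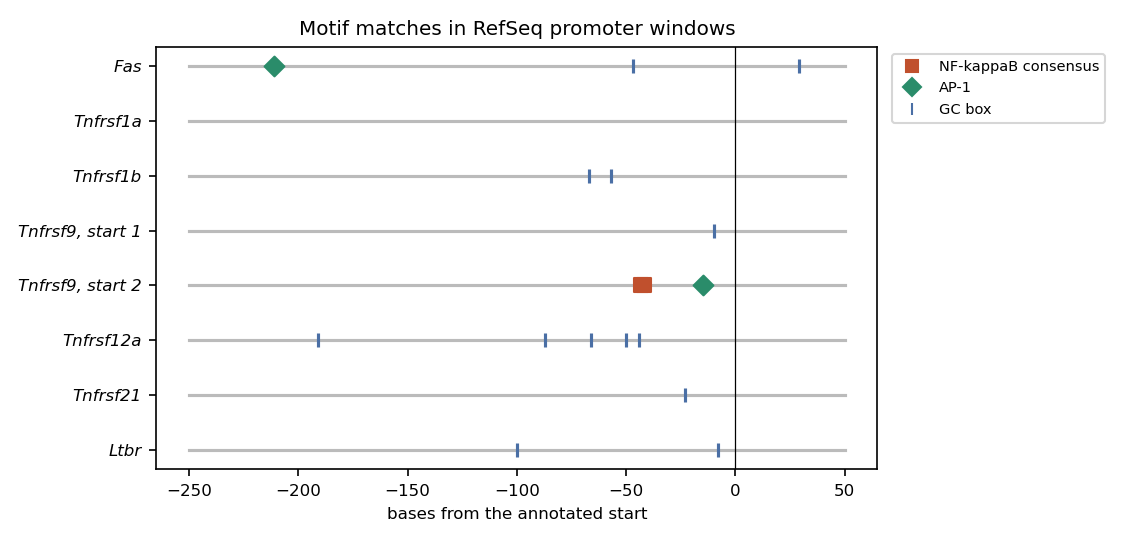
Motif matches in 8 RefSeq promoter windows of 7 receptor genes; the x axis gives the distance of a match's first base from the annotated start in bases, and each grey line is a window from 250 bases before to 50 after. The NF-kappaB consensus appears in the window of the second Tnfrsf9 start alone, AP-1 there and in Fas, and GC boxes in 6 windows, among them Tnfrsf12a with 5.

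Of the 10 genes, 8 passed the filter on low counts of edgeR, and Tnfrsf11b and Cd40 did not. In the quasi-likelihood test of edgeR on counts, adjusted over all 14605 tested genes at 0.05, the 4 genes Fas, Tnfrsf9, Tnfrsf1b and Tnfrsf1a were called higher in the Ov_SNHG1 libraries, and 0 were called lower. Among all tested genes 1.54% were called higher and 0.856% lower, 2.4% in all. Since this contrast was known when the family was chosen, nothing is read from that difference. In 5 of the 8, the same 4 and Ltbr, the 3 Ov_SNHG1 libraries lay above the 3 Vector libraries, as they did in 11.3% of all tested genes, and in 0 of the 8 they lay below, against 12.4% of all.

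**Figure D2:**
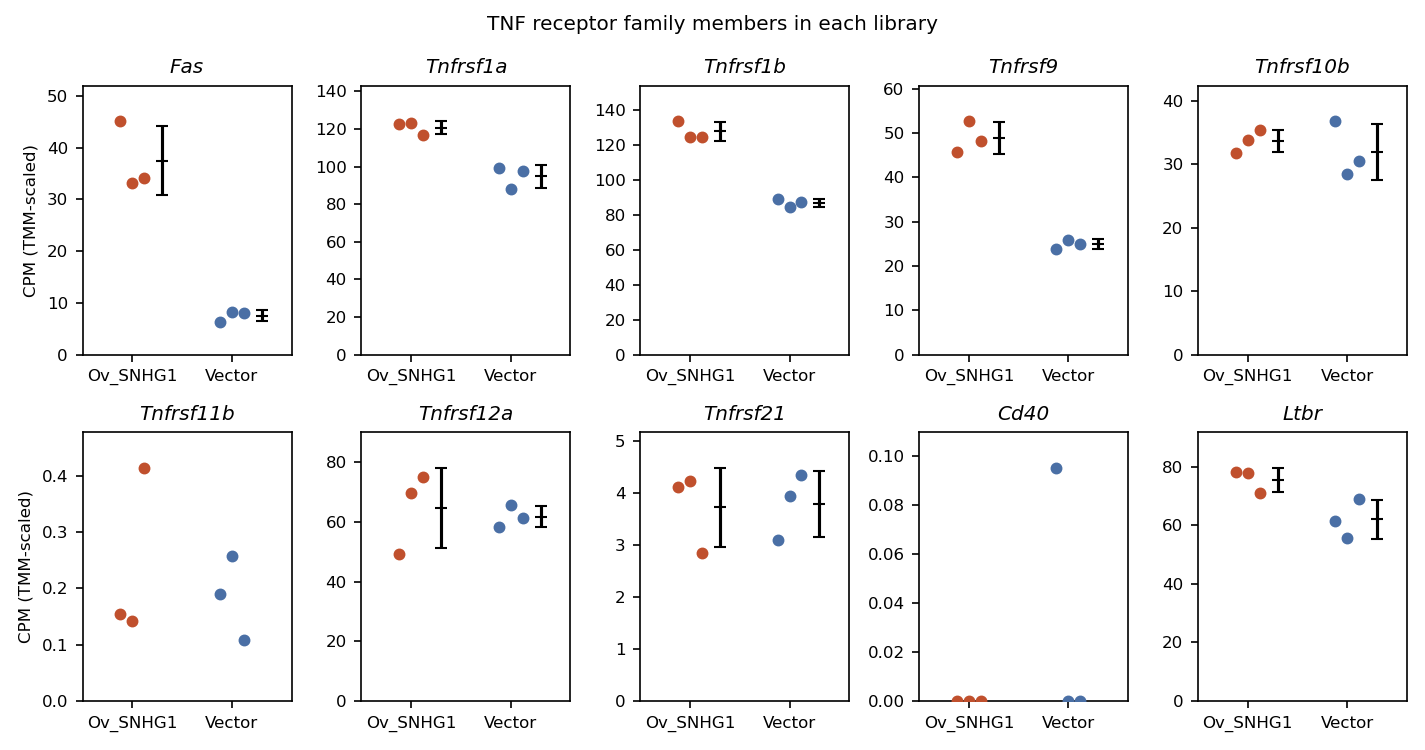
CPM of the 10 receptor genes in each library, scaled with TMM factors; points are libraries, Ov_SNHG1 left of Vector, and the bars beside them show mean and SD (n = 3) for the 8 genes that passed the filter. The y axes start at 0 and differ between panels. Fas lies at 33.2 to 45.2 in the Ov_SNHG1 libraries and at 6.23 to 8.25 in the Vector libraries, while the points of Tnfrsf10b, Tnfrsf12a and Tnfrsf21 overlap.

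Among the death receptors, Fas (ENSMUSG00000024778, chromosome 19, 34268066 to 34305172, in the coordinates of the deposited table, whose build is not named) had the largest log2 fold change of the 8 tested members. The deposited coordinates were the same as in RefSeq GRCm38.p6, the build of the promoter windows, for 0 of the 10 members. Gene positions and window positions given here therefore cannot be combined. Fas had 880, 699 and 660 counts in Ov_SNHG1 replicates 1 to 3, against 131, 128 and 150 in Vector replicates 1 to 3. In CPM this was 45.2, 33.2 and 34.2 in the Ov_SNHG1 libraries and 6.23, 8.25 and 8.13 in the Vector libraries. The groups did not come near each other, and Ov_SNHG1 replicate 1, the library that stood apart, was the highest. The log2 fold change was 2.32 ± 0.16 (SE), or 4.99-fold, the 20th largest increase of 14605, and 2.16 without Ov_SNHG1 replicate 1. By abundance among tested genes, Fas stood at the 59.3 percentile in the Ov_SNHG1 libraries and at the 28.1 percentile in the Vector libraries.

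Tnfrsf1a, the widely expressed death domain receptor for TNF (ENSMUSG00000030341, chromosome 6, 125326325 to 125339447), differed by far less. Its levels were 122, 123 and 117 CPM in the Ov_SNHG1 libraries and 99.2, 87.9 and 97.4 CPM in the Vector libraries. The groups did not overlap, and the log2 fold change was 0.35 ± 0.06 (SE). That call was lost without Ov_SNHG1 replicate 2 or 3 (0.33 and 0.37) and without Vector replicate 1, 2 or 3 (0.38, 0.29 and 0.36). It was also lost without the filter on low counts (0.36).

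The remaining death receptors did not separate the groups. Tnfrsf10b, the mouse receptor for the apoptosis-inducing ligand TRAIL (ENSMUSG00000022074, chromosome 14, 70004921 to 70021860), had 31.8, 33.7 and 35.4 CPM in the Ov_SNHG1 libraries and 36.8, 28.4 and 30.5 CPM in the Vector libraries. Its log2 fold change was 0.07 ± 0.10 (SE), and Vector replicate 1 was higher than every other library. Tnfrsf21, a death domain receptor studied mainly in neurons and lymphocytes (ENSMUSG00000023915, chromosome 17, 43327446 to 43400080), had 80, 89 and 55 counts in the Ov_SNHG1 libraries and 65, 61 and 80 in the Vector libraries. With 3.73 ± 0.761 CPM in the Ov_SNHG1 libraries and 3.79 ± 0.634 CPM in Vector (SD, n = 3 each), its log2 fold change was -0.02 ± 0.21 (SE). The death receptors therefore covered a range of log2 fold changes from -0.02 to 2.32.

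Among receptors that bind TRAF proteins, Tnfrsf9 and Tnfrsf1b were the highest in log2 fold change. Tnfrsf9, best known as a co-stimulatory receptor of activated T cells (ENSMUSG00000028965, chromosome 4, 150999019 to 151030559), had 891, 1110 and 930 counts in the Ov_SNHG1 libraries and 500, 402 and 462 in the Vector libraries. Its levels of 45.7, 52.7 and 48.2 CPM in the Ov_SNHG1 libraries, against 23.8, 25.9 and 25.05 CPM in the Vector libraries, gave a log2 fold change of 0.97 ± 0.08 (SE), or 1.96-fold. Every Ov_SNHG1 library was well above every Vector library, and the T cell markers Cd4 and Cd8a were at 0 in all of them. Tnfrsf1b, the TNF receptor without a death domain (ENSMUSG00000028599, chromosome 4, 144940033 to 144973440), stood at 134, 125 and 125 CPM in the Ov_SNHG1 libraries and at 89.0, 84.4 and 87.1 CPM in the Vector libraries. Its log2 fold change was 0.56 ± 0.06 (SE), and the spread within each group was small beside the distance between them. Fas, Tnfrsf9 and Tnfrsf1b were called in all 16 alternative analyses. These reuse the same libraries and the contrast known when the family was chosen, so they describe dependence on the processing only.

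Ltbr, Tnfrsf12a and Cd40 were not called. Ltbr, the lymphotoxin beta receptor that drives the alternative NF-kappaB pathway (ENSMUSG00000030339, chromosome 6, 125283534 to 125290848), had 78.1, 77.9 and 70.9 CPM in the Ov_SNHG1 libraries and 61.4, 55.7 and 69.1 CPM in the Vector libraries. Its groups did not overlap, but the lowest Ov_SNHG1 library and the highest Vector library were close, and the log2 fold change was 0.28 ± 0.09 (SE). Tnfrsf12a, the receptor for the ligand TWEAK (ENSMUSG00000023905, chromosome 17, 23894419 to 23896442), had 49.4, 69.7 and 75.1 CPM in the Ov_SNHG1 libraries and 58.4, 65.7 and 61.4 CPM in the Vector libraries. Ov_SNHG1 replicate 1 was its lowest library and the other two of that group its highest. The log2 fold change was 0.07 ± 0.14 (SE) with all libraries, 0.23 without Ov_SNHG1 replicate 1 and -0.05 without Ov_SNHG1 replicate 3, and it was not called in either case. Cd40, a co-stimulatory receptor of B cells and macrophages (ENSMUSG00000017652, chromosome 2, 164897547 to 164914868), had 0 counts in every Ov_SNHG1 library and 2, 0 and 0 counts in the Vector libraries. A count of 0 allows up to 3 counts (0.142 to 0.193 CPM over the 6 libraries, for counting error only). That limit does not cover Vector replicate 1, where Cd40 had 2 counts.

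Tnfrsf11b encodes osteoprotegerin, a secreted decoy receptor that binds the ligands RANKL and TRAIL (ENSMUSG00000063727, chromosome 15, 54114015 to 54141880). It had 3, 3 and 8 counts in the Ov_SNHG1 libraries and 4, 4 and 2 in the Vector libraries. These groups overlapped, and at this depth no difference was detectable.

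**Figure D3:**
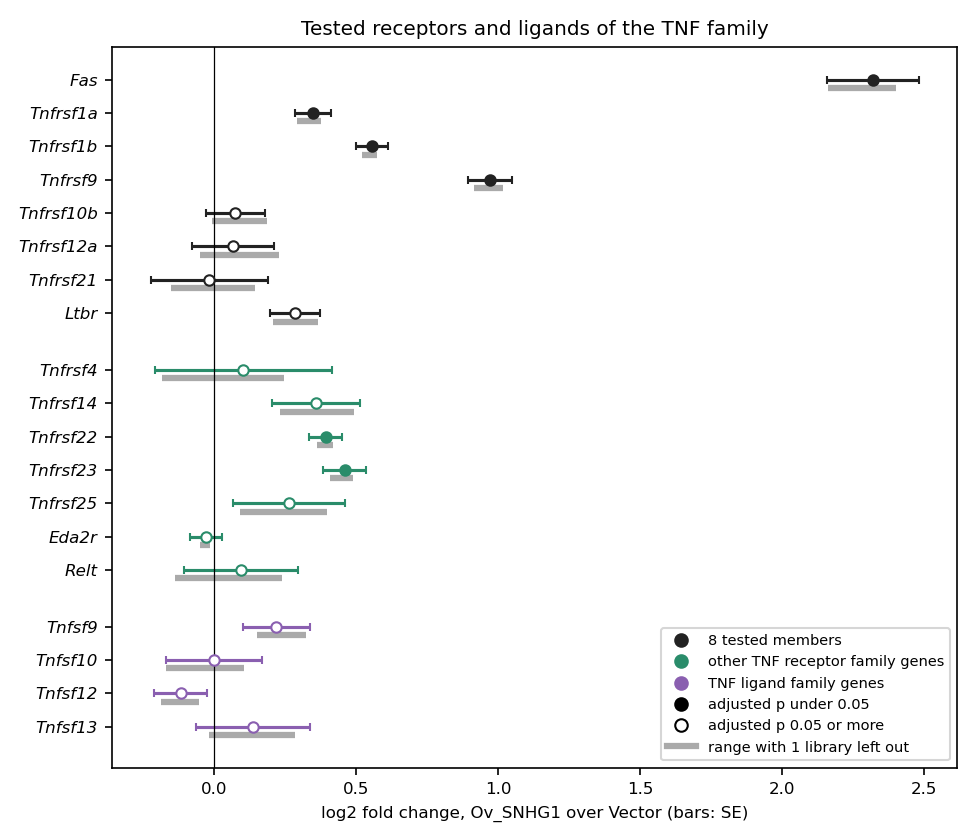
Log2 fold changes of Ov_SNHG1 over Vector for 8 tested members, 7 further tested receptors and 4 tested ligands of the TNF family; points with bars are the edgeR estimate and its SE, filled where the adjusted p over all genes was under 0.05, and grey bars span the values with 1 library left out. Fas stands at 2.32 and Tnfrsf9 at 0.97, and every other gene plotted lies below 0.6.

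Levels of different genes were compared as deposited FPKM, that is scaled to gene length and library total. In the Ov_SNHG1 libraries Tnfrsf1b (31.8 to 34.1 FPKM) and Tnfrsf1a (31.2 to 32.7 FPKM) led and overlapped, followed by Ltbr (25.7 to 28.2 FPKM). In the Vector libraries Tnfrsf1a (23.3 to 26.3 FPKM), Ltbr (20.1 to 24.9 FPKM) and Tnfrsf1b (21.5 to 22.6 FPKM) led, and each of the 3 overlapped another. Next in the Ov_SNHG1 libraries came Tnfrsf12a (11.9 to 18.2 FPKM), Fas (11.2 to 15.2 FPKM) and Tnfrsf9 (10.7 to 12.3 FPKM), each overlapping the next, then Tnfrsf10b (4.98 to 5.56 FPKM). In the Vector libraries the order was Tnfrsf12a (14.0 to 15.8 FPKM), Tnfrsf9 (5.54 to 6.06 FPKM), Tnfrsf10b (4.45 to 5.73 FPKM) and Fas (2.10 to 2.78 FPKM), where Tnfrsf9 and Tnfrsf10b overlapped. Fas thus ranked 5 of 10 in the Ov_SNHG1 libraries and 7 of 10 in the Vector libraries. Tnfrsf21 (0.542 to 0.820 FPKM over all libraries), Tnfrsf11b (0.0384 to 0.148 FPKM) and Cd40 (up to 0.0171 FPKM) were last in both groups.

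This order depends on the gene lengths behind the FPKM, least certain for Tnfrsf12a. Its deposited count and FPKM imply a length of 4151 bases, more than its genomic span of 2024 bases. With the longest GENCODE M21 transcript of each gene (984 bases for Tnfrsf12a) as its length, an alternative added after the data were seen, Tnfrsf12a ranked 1, Tnfrsf1a 2, Ltbr 3 and Tnfrsf1b 4 of 10 in both groups. Tnfrsf1b then lay below Tnfrsf1a in every library. Fas ranked 6 of 10 in the Ov_SNHG1 libraries and 7 of 10 in the Vector libraries. Such a length cancels between libraries, so the fold changes do not depend on it.

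The summed FPKM of the 10 genes was 138, 139 and 136 in the Ov_SNHG1 libraries and 99.0, 94.9 and 102 in the Vector libraries. Fas made up 8.05 to 11.0% of that sum in the Ov_SNHG1 libraries and 2.12 to 2.93% in the Vector libraries. Tnfrsf1b kept a like share, 22.9 to 24.6% in the Ov_SNHG1 libraries and 21.8 to 22.9% in the Vector libraries. The share of Tnfrsf10b was lower in each Ov_SNHG1 library (3.59 to 4.09%) than in each Vector library (4.68 to 5.79%), while its CPM overlapped between the groups. Shares of Tnfrsf1a, Ltbr, Tnfrsf12a and Tnfrsf21 were likewise lower in each Ov_SNHG1 library. That of Tnfrsf1a, itself called higher, was 22.9 to 23.5% in the Ov_SNHG1 libraries and 24.6 to 26.5% in the Vector libraries. A share can fall because the sum rises, so these falls show no decrease of a receptor. Summed by role, the 4 death receptors stood at 50.8 ± 2.42 FPKM in the Ov_SNHG1 libraries and 33.4 ± 1.82 FPKM in the Vector libraries, and the 5 TRAF-binding receptors at 87.1 ± 2.11 FPKM in the Ov_SNHG1 libraries and 65.2 ± 2.27 FPKM in Vector (SD, n = 3 each). Among the death receptors, Fas averaged 12.7 FPKM in Ov_SNHG1 and 2.54 in Vector, and Tnfrsf1a 32.1 and 25.2, while Tnfrsf10b and Tnfrsf21 overlapped between the groups. Shares and sums over genes depend on the same uncertain gene lengths.

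**Figure D4:**
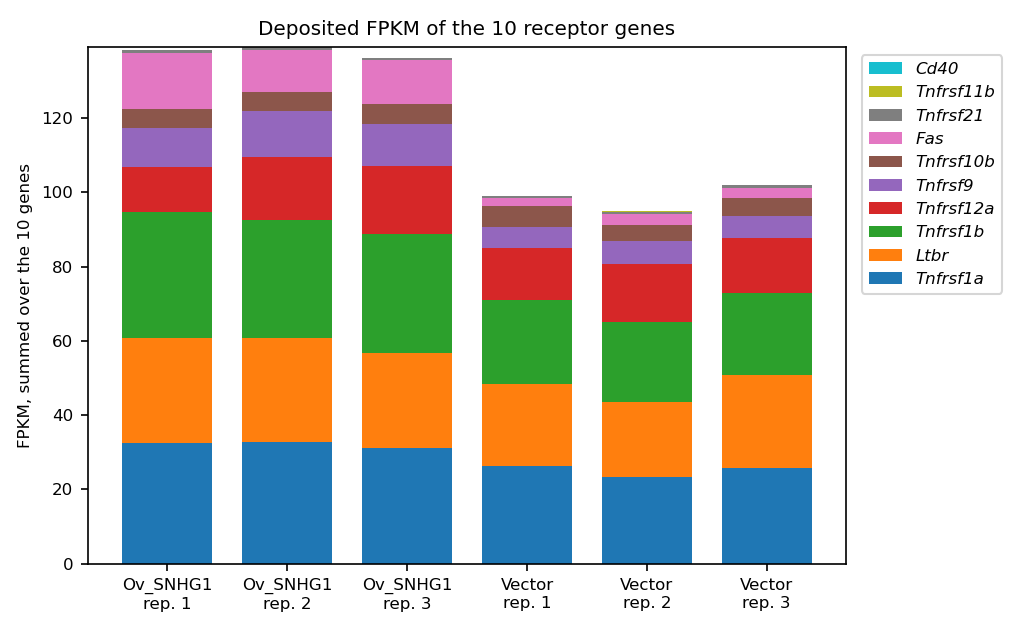
Deposited FPKM of the 10 receptor genes stacked by library; the y axis is FPKM summed over the genes and colours are genes. The sums are 136 to 139 in the Ov_SNHG1 libraries and 94.9 to 102 in the Vector libraries, and the Fas segment is the one that differs most in proportion.

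The other receptors of the family were read from a list of 18 genes, of which 7 were tested, 2 rose and 0 fell. Over all tested genes 1.54% were called higher and 0.856% lower. This list and those below were chosen with earlier results of these data known, so their calls and p-values are a description. The median log2 fold change of the 7 was 0.26, against 0.0065 over all 14605 tested genes. Tnfrsf22 and Tnfrsf23, which encode decoy receptors for TRAIL in the mouse, rose by 0.39 ± 0.06 and 0.46 ± 0.08 (log2, SE; edgeR, adjusted p = 0.0141 and 0.0211). Tnfrsf22 had 90.4, 94.7 and 97.0 CPM in the Ov_SNHG1 libraries and 73.4, 72.5 and 69.0 CPM in the Vector libraries. Tnfrsf23 had 32.7, 36.5 and 33.1 CPM in the Ov_SNHG1 libraries and 24.3, 25.7 and 24.4 CPM in the Vector libraries. Neither pair of groups overlapped. These genes are related neighbours on chromosome 7 (143188543 to 143203398 and 143219546 to 143239609), and no source used here says how reads shared between them were counted, so their values are uncertain. Both lost their call without any single library except Ov_SNHG1 replicate 1, with adjusted p of up to 0.0705 for Tnfrsf22 and 0.106 for Tnfrsf23 over the alternatives and log2 fold changes of 0.36 to 0.42 and 0.41 to 0.49 with 1 library left out. Eda2r, an ectodysplasin receptor and the most abundant of those not called, stood at 53.7 ± 0.816 CPM in the Ov_SNHG1 libraries and 54.7 ± 1.22 CPM in Vector (SD, n = 3 each; edgeR, adjusted p = 0.834). Tnfrsf13b, Tnfrsf19 and Edar had 0 counts in all libraries.

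Ligands of the family were few. Of 18 ligand genes 4 were tested, and 0 passed edgeR, with 0 called by DESeq2 or limma-voom. An unadjusted p under 0.05 was found for 0 of the 4, and for 2478 of all 14605 tested genes. Tnf, whose product binds both TNF receptors, had 0 counts in all 6 libraries, and Fasl, which encodes the ligand of Fas, had 0 counts in the Ov_SNHG1 libraries and 1 in the Vector libraries. Cd40lg, Tnfsf11 and Tnfsf14, ligand genes for Cd40, for the decoy encoded by Tnfrsf11b and for Ltbr, had 0 counts throughout, and Ltb had 0 in the Ov_SNHG1 libraries and 3 in the Vector libraries. Lta, another ligand gene of the list, was counted but too low to be tested, with 26 counts in the Ov_SNHG1 libraries and 15 in the Vector libraries. The ligand genes with tested counts were Tnfsf9, Tnfsf10, Tnfsf12 and Tnfsf13. Tnfsf9, the ligand gene for Tnfrsf9, averaged 11.6 ± 0.250 CPM in the Ov_SNHG1 libraries and 10.0 ± 1.26 CPM in Vector (SD, n = 3 each; edgeR, adjusted p = 0.381). Tnfsf10, which encodes TRAIL, averaged 5.84 ± 0.249 CPM in the Ov_SNHG1 libraries and 5.88 ± 1.19 CPM in Vector (SD, n = 3 each; edgeR, adjusted p = 0.997). Tnfsf12, which encodes TWEAK, averaged 25.4 ± 2.32 CPM in the Ov_SNHG1 libraries and 27.6 ± 1.70 CPM in Vector (SD, n = 3 each; edgeR, adjusted p = 0.542).

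Among genes that carry the signal of death receptors, none was called by edgeR with all 6 libraries. Of 28 listed genes 25 were tested and 0 passed edgeR. Before adjustment 6 of the 25 had a p under 0.05, as had 2478 of all 14605 tested genes. DESeq2 called 1 of the 25 and limma-voom 0. The median log2 fold change was 0.02. The adaptor Fadd was at 0.18 ± 0.11, the initiator Casp8 at 0.02 ± 0.08 and its inhibitor Cflar at 0.04 ± 0.06 (log2, SE; edgeR, adjusted p = 0.410, 0.936 and 0.769). Birc3, an inhibitor of apoptosis that binds TRAF2 and is a known NF-kappaB target, had the highest value, 0.71 ± 0.21 (log2, SE; edgeR, adjusted p = 0.143), and its groups did not overlap. The gene that DESeq2 called, named after its values were seen, was Bcl2l1, which encodes the survival protein Bcl-xL. It stood at 20.2, 22.7 and 19.6 CPM in the Ov_SNHG1 libraries and at 21.9, 36.6 and 39.9 CPM in the Vector libraries, so Vector replicate 1 lay among the Ov_SNHG1 libraries (DESeq2, adjusted p = 0.0125, with alternatives spanning 0.0125 to 0.375). It was also called without Vector replicate 1, and its log2 fold change ran from -0.88 to -0.49 with 1 library left out. Bax, which encodes a pore-forming protein of the mitochondrial death pathway and is likewise named after its values were seen, was called higher without Ov_SNHG1 replicate 1 (edgeR, adjusted p = 0.0238, with alternatives spanning 0.0238 to 0.499). It had 101, 123 and 123 CPM in the Ov_SNHG1 libraries and 94.8, 98.7 and 101 CPM in the Vector libraries, and its log2 fold change was 0.24 with all libraries. Mcl1, the most abundant gene of the list, was at -0.04 ± 0.06 (log2, SE; edgeR, adjusted p = 0.765).

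Downstream of the TRAF-binding receptors, 4 of 21 tested genes of the TRAF and alternative NF-kappaB list rose and 0 fell, with a median log2 fold change of 0.10. Over all tested genes 1.54% were called higher and 0.856% lower. Relb and Nfkb2, the subunits of the alternative pathway that Ltbr and Cd40 feed, rose by 1.41 ± 0.11 and 0.92 ± 0.06, Nfkb1 by 1.12 ± 0.06 and the adaptor Traf2 by 0.67 ± 0.08 (log2, SE; edgeR, adjusted p = 0.00066, 0.000153, 3.8e-05 and 0.00687). Traf1, an adaptor induced by NF-kappaB, had 4.98, 3.51 and 2.80 CPM in the Ov_SNHG1 libraries and 1.76, 2.06 and 2.11 CPM in the Vector libraries. Its groups did not overlap, but the call did not pass (0.93 ± 0.24, log2, SE; edgeR, adjusted p = 0.103). Tab2, the most abundant gene not called, was at -0.06 ± 0.10 (log2, SE; edgeR, adjusted p = 0.794). With DESeq2 the list had 7 calls in place of 4. The 3 further genes, named after their values were seen, were Traf3 and Rela, at 0.40 and 0.31 (log2, edgeR), and Map3k14, at -0.37.

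Of 13 tested genes in the feedback and linear ubiquitin list, which holds inhibitors of TNF receptor signalling and the ubiquitin ligase that promotes it, 3 rose and 0 fell, with a median log2 fold change of 0.14. The shares over all tested genes were 1.54% called higher and 0.856% lower. Nfkbia, which encodes the NF-kappaB inhibitor IkappaB-alpha, rose by 1.79 ± 0.07, Tnfaip3, which encodes the ubiquitin editor A20, by 1.07 ± 0.15 and Spata2, which links the deubiquitinase CYLD to the receptor complex, by 0.48 ± 0.07 (log2, SE; edgeR, adjusted p = 1.0e-05, 0.0139 and 0.0154). Tnfaip3 lost its call without Vector replicate 1 or 2, and Spata2 without Ov_SNHG1 replicate 2 or Vector replicate 2 or 3, with adjusted p of up to 0.067 and 0.0699 over the alternatives. Rbck1, a subunit of the linear ubiquitin ligase and the most abundant gene not called, was at 0.12 ± 0.06 (log2, SE; edgeR, adjusted p = 0.354). With DESeq2 the list had 4 calls, all higher. The further gene, named after its values were seen, was Tnip1 (DESeq2, adjusted p = 0.0384).

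Among 6 tested genes that act on receptor shedding, 1 rose and 1 fell, with a median log2 fold change of 0.06. The shares over all tested genes were 1.54% called higher and 0.856% lower. Rhbdf2, which encodes the iRhom that carries the TNF-releasing protease ADAM17 to the cell surface, had 40.9, 40.9 and 42.4 CPM in the Ov_SNHG1 libraries and 21.2, 18.8 and 21.14 CPM in the Vector libraries. It rose by 1.02 ± 0.08 (log2, SE; edgeR, adjusted p = 0.000416). Adam10, a related membrane protease, had 187, 160 and 166 CPM in the Ov_SNHG1 libraries and 300.4, 308 and 270.5 CPM in the Vector libraries. It fell by 0.78 ± 0.08 (log2, SE; edgeR, adjusted p = 0.00232). Both were called in all 16 alternatives. Rhbdf1, the relative of Rhbdf2 and the most abundant gene not called, was at 0.01 ± 0.05 (log2, SE; edgeR, adjusted p = 0.934).

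**Figure D5:**
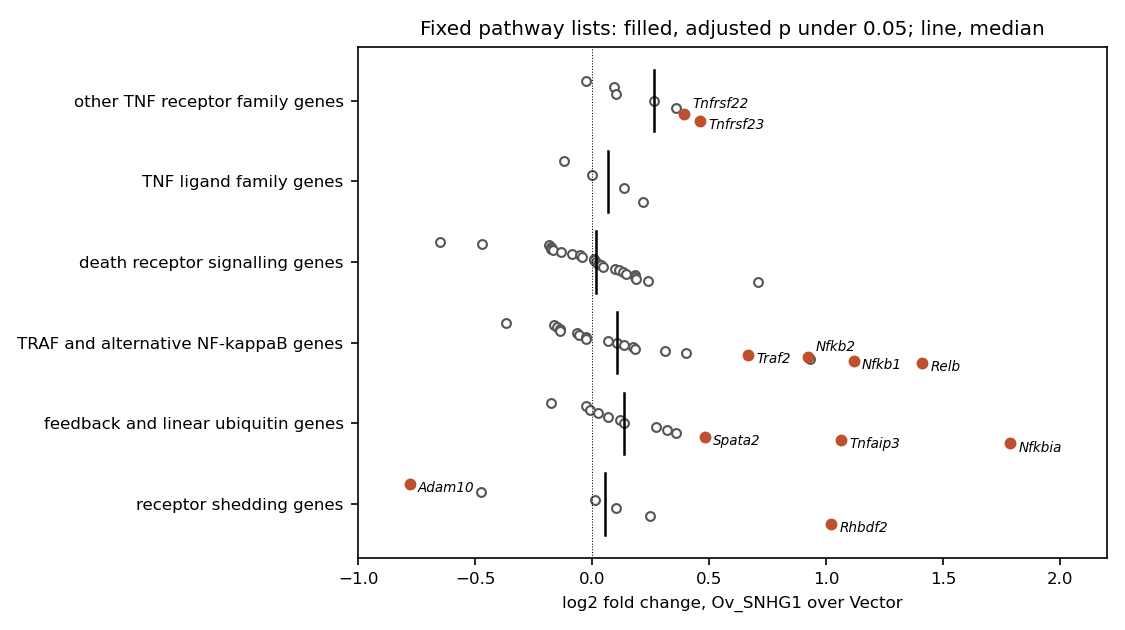
Log2 fold changes of Ov_SNHG1 over Vector for the tested genes of 6 pathway lists; each point is a gene, filled and named where the edgeR adjusted p over all genes was under 0.05, and the vertical line is the list's median. Of the 11 filled points 10 are higher and 1, Adam10, is lower, and the ligand and death receptor signalling lists hold 0. Over all tested genes 1.54% were called higher and 0.856% lower.

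By position, the nearest tested protein-coding genes on either side of the 10 members were 19 distinct genes, among them Scnn1a between Ltbr and Tnfrsf1a. Of these 0 passed edgeR. Before adjustment 4 of the 19 had a p under 0.05, as had 2478 of all 14605 tested genes. DESeq2 called 1 of the neighbours (Cldn9), and their groups did not overlap in 5, against 23.7% of all tested genes in either direction. Their log2 fold changes ran from -0.44 (Cldn9, 5116 bases from Tnfrsf12a) to 0.85 (Enpp2, 560417 bases from Tnfrsf11b). Negative values were found in 15 of the 19, while 7488 of all 14605 tested genes were positive. Distances to the member ran from 125 bases (Park7) to 904460 bases (Ext1), so some neighbours are far away. Beside Fas, Acta2 was at -0.26 ± 0.14 and Lipa at -0.23 ± 0.07 (log2, SE; edgeR, adjusted p = 0.399 and 0.169). Beside Tnfrsf9, Park7 was at 0.22 ± 0.13 and Per3 at -0.09 ± 0.06 (log2, SE; edgeR, adjusted p = 0.420 and 0.489). Scnn1a, which had 36 counts in the Ov_SNHG1 libraries and 37 in the Vector libraries, was at -0.15 ± 0.37 (log2, SE; edgeR, adjusted p = 0.869). The other neighbours were Plekhg6, Vps13d, Zfp268, Chmp7, Rhobtb2, Ext1, Hcfc1r1, Cd2ap, Pla2g7, Ncoa5, Slc35c2 and Vamp1. The Fas row overlapped 1 other row of the table, the small RNA gene Gm54659, which had 2 counts in the Ov_SNHG1 libraries and 1 in the Vector libraries.

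The genes most like Fas over the 6 libraries, by the Euclidean distance of centred log2 CPM among 13331 genes, were Bcl3, Zc3h12a, Nfkbiz, Cebpd and Ccn5. Their distances were 0.287, 0.391, 0.441, 0.474 and 0.534 on the log2 scale. Their log2 fold changes were 2.49, 2.14, 2.28, 2.01 and 1.97, on either side of the 2.32 of Fas. All 5, like Fas, had their highest CPM in Ov_SNHG1 replicate 1, in Cebpd by little (65.7 CPM, against 64.4 in Ov_SNHG1 replicate 2). The genes were picked by likeness over these same libraries, so like fold changes and a like peak follow from the choice. Nfkbiz had 183, 116 and 152 CPM in the Ov_SNHG1 libraries and 32.2, 31.3 and 29.7 CPM in the Vector libraries. Bcl3 and Nfkbiz encode nuclear relatives of the IkappaB proteins, Zc3h12a an RNase that degrades inflammatory mRNAs, Cebpd a transcription factor and Ccn5 a secreted matricellular protein.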

How the data were processed

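The table that the authors deposited holds unnormalized counts and FPKM for each library over 57180 mouse Ensembl gene rows. The human build GRCh38 stands in the submitters' processing notes beside StringTie, HISAT2 and SAMtools 1.3.1, although every row is a mouse identifier. How reads were counted, on which strand, and to which build the coordinates belong were not given in the sources used. The deposited FPKM follow from counts, library totals and 1 length per gene, within 0.0698%. That length exceeded the genomic span for 16.0% of the 14815 genes counted in every library and at least 50 times. Rows without a symbol (525) held 0.194% of counts.

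Libraries were grouped by title. Counts were tested in R 4.3.3 with edgeR 4.0.16 (quasi-likelihood F test, TMM, filterByExpr, group as the only term, Benjamini-Hochberg adjustment over 14605 genes, threshold 0.05). CPM values were counts scaled by library total and TMM factor. Each log2 fold change carries the standard error of its fit. The procedure was also run on simulated counts, which held no GC or library trends, so that run cannot vouch for the calls here. Replicates differed by more than sampling noise (chi-square per degree of freedom 7.83 to 12.1). The members, lists and named genes were chosen with earlier results of these data known. Of each list, every called gene (up to 6 per direction), the most abundant gene not called and 10 genes picked by hand were named, with the nearest neighbours of the members and the 5 genes most like Fas (mean CPM of at least 1, 0.5 added before the log). Alternatives were other normalizations and filters, DESeq2 1.42.0, limma 3.58.1 on voom weights or on log2(FPKM + 1) or log2(FPKM + 0.1), a replicate block, GC and length trends removed, and leaving out each library. Sequences came from RefSeq. Protein sequences were not analysed here.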

Additional observations from a re-analysis of the deposited data

How the results depend on the processing

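Fas, Tnfrsf9 and Tnfrsf1b kept their call in all 16 alternatives, which reuse the same libraries and contrast and add no independent support. Tnfrsf1a lost it in 7: without a filter on low counts (log2 fold change 0.36), with the replicate block (0.35), and in 5 of the 6 analyses without a library, where it ran from 0.29 to 0.38. The members called numbered 3 or 4 throughout. Receptors near 0 changed sign without being called: Tnfrsf12a to -0.060 with GC and length trends removed. With 1 library left out, Tnfrsf10b ran from -0.0061 to 0.19, Tnfrsf12a from -0.052 to 0.23 and Tnfrsf21 from -0.15 to 0.14. The cause was not tested. Fold changes rose with GC content across 11010 genes (Spearman rho 0.352, genes not being independent replicates) and fell with transcript length (rho -0.243), and with both trends removed together Tnfrsf1a was at 0.27 and Ltbr at 0.19.

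Of all tested genes 350 were called, against 646 with DESeq2 and 163 with the replicate block, and 123 (without Vector replicate 1) to 807 (without Ov_SNHG1 replicate 1) with 1 library left out, from fewer samples. The 6 pathway lists held 11 calls together, 16 with DESeq2 and 7 to 12 with 1 library left out. Replicate numbers did not pair the samples (correlation of deviations 0.022, -0.040 and -0.019), so calls lost under the block, Tnfrsf22 and Tnfrsf23 among them, are not read as weaker effects. The rank of Tnfrsf12a by level per length was 4 with the deposited FPKM and 1 with GENCODE lengths, which put Tnfrsf1b at 4 in both groups. The number of windows with each motif was the same in the 250 bases before the start alone. Counts limit Tnfrsf11b, Cd40 and most ligand genes, whose differences were not detectable at this depth.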
